A study of Mus musculus with 62 samples.

Results

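Trimethylation of lysine 9 of histone H3 (H3K9me3) was compared between haematopoietic stem and progenitor cells (HSPCs) that had lost both Daxx and Pu.1 (DKO) and wild-type (WT) HSPCs at 8 weeks post induction (w.p.i.). The members were the autosomal sites of the deposited comparison of 3 DKO with 3 WT libraries, 46111 of the 49314 sites listed, and the remaining 3137 sites on chromosome X and 66 on chromosome Y were left aside. These 6 libraries were among the 62 of the whole series. Each site carried one value per library, and its direction and size were computed from these values.

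The DKO mice carried Daxx F/F, Pu.1 F/F and Cre +/-, and the WT mice Daxx +/+ and Cre +/-, all labelled C57BL/6. By the methods of the study, Cre was the interferon-inducible Mx1Cre, and deletion was induced with the double-stranded RNA analogue pI:pC, so the Cre allele was shared by both groups. HSPCs had been enriched from bone marrow with magnetic beads for c-Kit after depletion of lineage-positive cells, each library came from a different mouse, and neither age nor sex was in the labels. The floxed Daxx allele was made in C57BL/6N and the floxed Pu.1 allele was kept in C57BL/6J. Genotype and line of origin therefore cannot be told apart in this comparison, and in bulk cells fewer marked cells and less mark per cell cannot be told apart either. The comparison bears on whether H3K9me3 differs from WT where Pu.1 is removed together with Daxx.

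H3K9me3 is a mark of heterochromatin, written by enzymes such as Setdb1 and Suv39h1 and read by HP1 proteins. In mouse cells it covers retroelements, arrays of KRAB zinc-finger genes, satellite DNA and the methylated allele of imprinted control regions. Daxx is a chaperone that, with Atrx, places the histone variant H3.3 at such silent regions, and Pu.1, encoded by Spi1, is the transcription factor that drives myeloid and early lymphoid differentiation. CUT&Tag maps the mark with an antibody that tethers the Tn5 transposase to it.

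The DKO libraries varied more in depth than the WT libraries and were scaled by other constants. The mean number of reads per 600-bp window recorded in the header was 0.67, 0.21 and 3.28 in DKO replicates 1, 2 and 3, and 1.13, 1.87 and 1.49 in WT replicates 1, 2 and 3. The group means were 1.39 ± 1.66 and 1.50 ± 0.370 (SD, n = 3), with an exact two-sided permutation p of 1.00, where 3 libraries against 3 cannot go below 0.1. A normalized count is the number of reads at a site divided by a constant of the library, and 1 read was worth 2.17, 3.45 and 0.769 normalized counts in DKO replicates 1 to 3 but 0.448, 0.493 and 0.714 in WT. After division by the constant, the mean per window was 1.46, 0.724 and 2.52 in DKO and 0.507, 0.921 and 1.06 in WT. These group means were 1.57 ± 0.905 and 0.831 ± 0.290 (SD, n = 3), with an exact two-sided permutation p of 0.300. DKO replicate 2 was thus the shallowest library, and DKO replicate 3 held the most reads per unit of its constant. The total counts of sites are also given without either of them, although such counts cannot fall.

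Sequence from the regions that carry the comparison is shown first, because sites that were lower in DKO had more CpG dinucleotides than those that were higher. The lines give the middle 200 bases of 2 higher sites (nearest genes Nfe2l2 and Sprr2a3) and 2 lower sites (nearest genes Cdyl2 and Plekha3), read from GRCm38 on the plus strand, with each CpG in capitals.
Higher, chr2:75748876-75749075: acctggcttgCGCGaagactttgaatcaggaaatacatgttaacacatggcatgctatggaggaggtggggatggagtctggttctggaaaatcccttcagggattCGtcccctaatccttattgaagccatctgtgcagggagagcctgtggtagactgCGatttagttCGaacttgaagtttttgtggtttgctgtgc
Higher, chr3:92278826-92279025: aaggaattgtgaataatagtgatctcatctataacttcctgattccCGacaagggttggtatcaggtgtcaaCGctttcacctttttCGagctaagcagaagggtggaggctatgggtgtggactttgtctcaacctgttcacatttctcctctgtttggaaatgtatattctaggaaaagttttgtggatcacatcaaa
Lower, chr8:116668501-116668700: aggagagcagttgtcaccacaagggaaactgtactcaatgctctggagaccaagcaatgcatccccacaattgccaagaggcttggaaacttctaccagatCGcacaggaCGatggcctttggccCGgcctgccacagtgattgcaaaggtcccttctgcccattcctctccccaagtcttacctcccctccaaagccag
Lower, chr2:76712176-76712375: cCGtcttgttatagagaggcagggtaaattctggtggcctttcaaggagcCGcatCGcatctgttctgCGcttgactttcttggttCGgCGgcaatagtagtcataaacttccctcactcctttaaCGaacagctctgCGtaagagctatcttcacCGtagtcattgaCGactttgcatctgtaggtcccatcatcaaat
The higher stretches held 5 and 3 CpGs, and the lower ones 3 and 10.

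In normalized counts, H3K9me3 was higher in DKO than in WT at many weak sites and lower at fewer but stronger ones. At 22014 autosomal sites (47.7%) all 3 DKO libraries lay above all 3 WT libraries, and at 8234 (17.9%) they lay below. At the other 15863 sites the groups overlapped, although the DKO average was the higher one at 15430 of them. All listed sites had already passed the authors' test, so these shares describe the list and no test was made across sites.

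At the higher sites the median normalized count was 17.2, 13.8 and 13.8 in DKO replicates 1, 2 and 3 and 2.70, 3.45 and 4.30 in WT. These medians stood for 8, 4 and 18 reads in DKO and for 6, 7 and 6 reads in WT, so in reads DKO replicate 2, the shallowest library, lay below every WT library. At the lower sites the median was 4.31, 6.91 and 6.13 in DKO and 25.2, 26.1 and 22.9 in WT, or 2, 2 and 8 reads against 56, 53 and 32. There DKO replicate 3, with the most reads per window of the 6 libraries, also had a lower median than every WT library before any scaling. In DKO replicates 1 and 2 fewer reads before scaling cannot be told apart from lower depth. With the reads divided by the mean per window, 7439 of the 8234 lower sites kept their call. The median log2 fold of DKO over WT, computed with a pseudocount of 1 normalized count that understates the change of weak sites, was 1.95 at higher and -1.96 at lower sites.

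The number of higher sites depended on the scaling, and the number of lower sites much less. With the reads divided by the mean per window instead of the constant, 8592 sites were higher and 7554 lower, so that the share of higher sites fell from 72.8% to 53.2%. Of the sites called with the constant, 8231 higher and 7439 lower ones kept their call. The median log2 fold over all autosomal sites was 1.52 with the constant and 1.15 with the mean per window, and the direction of single sites is best read against these shifts. With at least 10 reads asked of each library of the higher group, which the shallower DKO libraries reach less easily, 2427 sites were higher and 7666 lower. Without DKO replicate 2 there were 25959 higher and 9149 lower sites, and without DKO replicate 3 there were 26651 and 8264. Leaving out a library can only keep or add calls, so these counts are no check on either library.

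Direction varied with the average of the higher group. That average comes from the same counts as the direction and was taken with the constant only, so the relation is a description. Where the higher group averaged 10 to 20 normalized counts, 83.7% of the sites without overlap were higher in DKO. Where it averaged 100 to 200 this was 11.0%, with 50 higher and 405 lower sites. The share was 68.5% below 10 and 18.3% at 200 or more. Long sites were mostly lower, since 22 of the 24 non-overlapping sites of 5000 bp or more were lower in DKO. On each of the 19 autosomes higher sites outnumbered lower ones, from 66.8% of non-overlapping sites on chromosome 13 to 80.5% on chromosome 19.

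**Figure D1:**
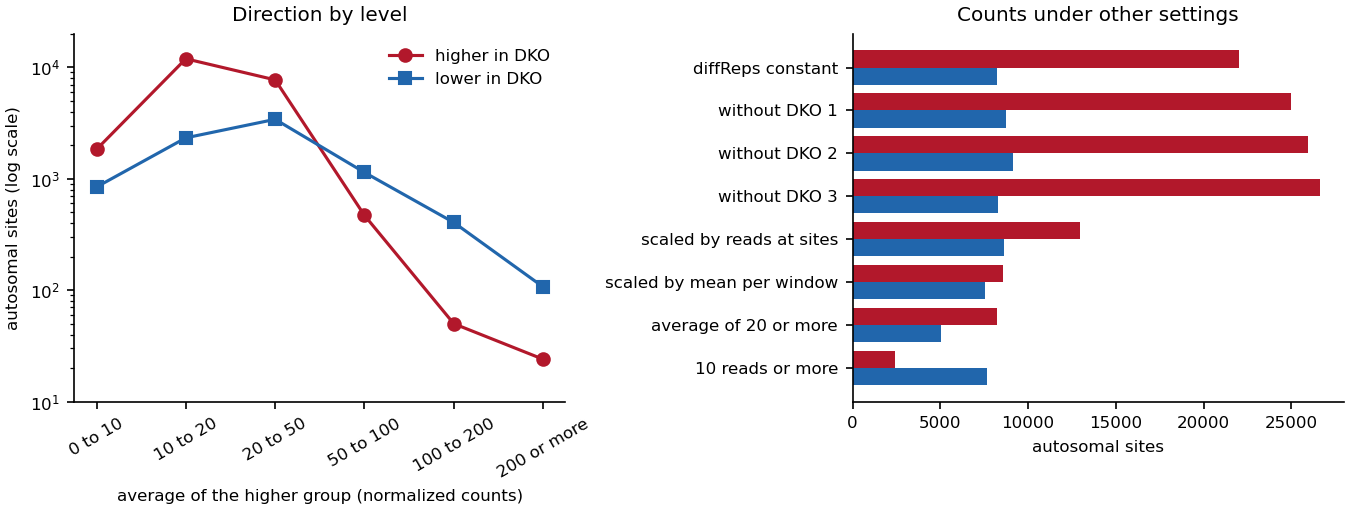
Left, number of autosomal sites without overlap of the groups (log scale) against the average of the higher group in normalized counts, for sites higher and lower in DKO. Right, numbers of higher (red) and lower (blue) sites under other scalings, filters and sets of libraries. Higher sites outnumber lower ones up to 50 normalized counts and not above, and the bars for higher sites vary from 2427 to 26651 while those for lower sites vary from 5063 to 9149.

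Higher and lower sites lay in different kinds of sequence. The median share of repeat-masked bases was 33.1% at higher and 77.8% at lower sites, beside 24.3% in 23959 windows of 750 bp placed every 100 kb along the autosomes. Sites masked over 80% or more of their length made up 21.3% of the higher and 48.5% of the lower sites, against 10.9% of the windows. The median ratio of observed to expected CpG was 0.133 at higher sites, 0.317 at lower sites and 0.160 in the windows, and the median GC content was 41.0%, 47.1% and 41.7%. Among sites masked over at least 80% and averaging 50 normalized counts or more in the higher group, 835 were lower and 70 higher in DKO. Among those masked under 20% at the same level, 204 were lower and 160 higher.

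**Figure D2:**
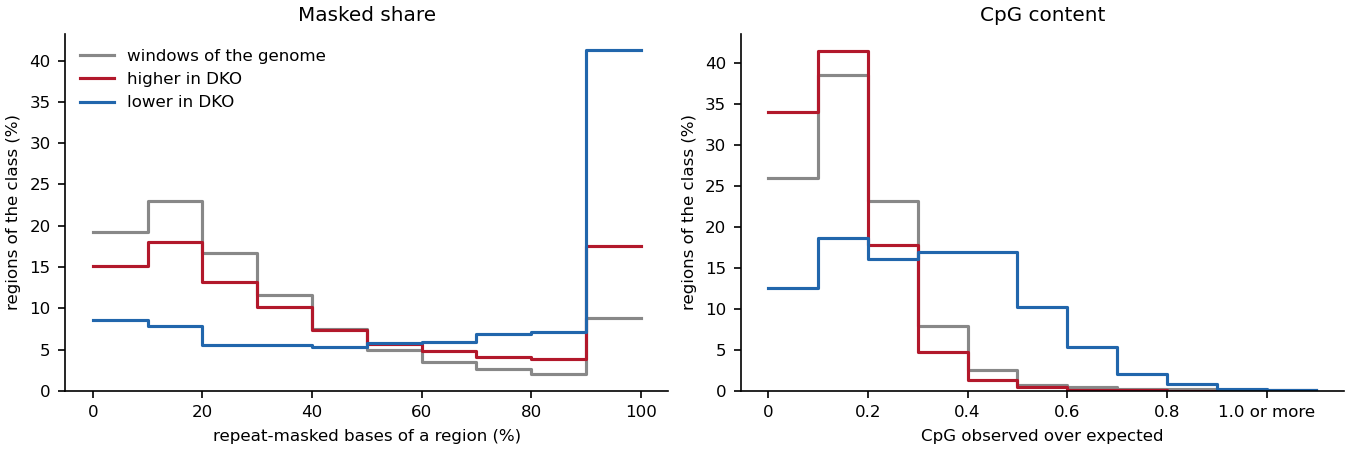
Share of regions of each class (%) by the percentage of repeat-masked bases (left) and by the ratio of observed to expected CpG (right), for sites higher in DKO, sites lower in DKO and windows of the genome of 750 bp. The lower sites peak in the most masked bin and reach CpG ratios at which few higher sites or windows lie.

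Few sites of either class lay at promoters. Within 1 kb of a transcription start site (TSS) lay 4.57% of the higher sites (95% Wilson interval 4.30 to 4.85) and 5.61% of the lower sites (5.13 to 6.13), beside 4.94% of all listed autosomal sites. Outside protein-coding genes were 72.3% of the higher and 71.1% of the lower sites, and in their introns 20.4% and 19.7%. The nearest protein-coding TSS was at a median of 167 kb from higher and 62.4 kb from lower sites, beside 144 kb for all listed sites and 47.3 kb for the windows of the genome. The core of the Pu.1 motif, GAGGAAGT on either strand, occurred in the middle 300 bases of 1.77% of higher sites (1.60 to 1.95) and 1.96% of lower sites (1.68 to 2.28). It occurred in 1.86% of genome windows of 300 bp and in 3.20% of the 32851 RefSeq promoters of that length.

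The 8 lower sites with the widest gap between the groups were long blocks of 5550 to 10700 bp. The first, on chr12:20227851-20234850 outside any protein-coding gene, held 1502, 1271 and 1310 normalized counts in DKO and 3648, 2198 and 2706 in WT. The second covered part of Flg2, the gene of a filaggrin-like protein of the skin barrier, on chr3:93207751-93218450. It held 979, 863 and 729 in DKO against 4665, 1658 and 1713 in WT. At these 2 sites much of the mark was still present in DKO, with log2 folds of -1.07 and -1.64.

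The other 6 lay in genes and had lost most of the signal. In an intron of Smyd3, the gene of a SET-domain methyltransferase, the site on chr1:179431251-179439350 held 43.1, 55.3 and 28.4 in DKO and 534.7, 452.2 and 459.8 in WT. In Cpq, which encodes a carboxypeptidase, the site on chr15:33116451-33122000 held 69.0, 41.4 and 87.4 against 531.1, 464.0 and 431.8. In both genes every WT library was more than 4 times every DKO library.

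In an intron of Cdyl2, a chromodomain gene of the CDY family, the site on chr8:116664901-116672300 held 0, 6.9 and 29.1 normalized counts in DKO and 465.5, 443.3 and 366.7 in WT. These were 40 reads in the 3 DKO libraries together against 1036, 900 and 512 reads in the single WT libraries. It was one of 32 lower sites within 100 kb, with no higher one among them, so the lower signal ran over a longer stretch. In an intron of Arl15, which encodes a small GTPase of the ARF-like family, the site on chr13:113908351-113918750 held 47.4, 0 and 30.7 against 385.1, 500.0 and 342.3. The log2 folds of these sites were -5.03 and -3.92.

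A site that spanned exons of Ttn, the giant sarcomere protein titin, on chr2:76708851-76715700 (nearest TSS Plekha3) held 32.3, 34.5 and 36.8 in DKO and 418.8, 311.3 and 389.6 in WT. A site over an exon of Zfhx3, the gene of a large homeodomain and zinc-finger transcription factor, on chr8:108945301-108951950 held 73.3, 110.5 and 79.0 against 715.3, 333.5 and 456.2. Only 4.23% and 5.71% of the bases of these 2 sites were masked, while the site in Cpq was masked over 87.5%. All 8 lower sites kept their direction without overlap of the groups when the mean per window was used for scaling.

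The 8 higher sites with the widest gap were of another kind. At 3 of them all libraries held over 500 normalized counts, on chr12:3109301-3109950 far from genes, on chr9:24541551-24542650 near Dpy19l1 and on chr6:103649251-103649850 in Chl1. The first held 6583, 11394 and 16507 in DKO and 2195, 5201 and 4323 in WT, the most of any named site, and its log2 fold of 1.56 was near the median of all sites. With the mean per window, the groups overlapped at all 3. The same 3 places were also listed for H3K27me3 in these mice, where the site in Chl1 held 328.3, 2634 and 5413 in DKO and 1019, 1412 and 718.8 in WT, so the groups overlapped for that mark.

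The site with the clearest gain was on chr2:75748601-75749350, 44.3 kb from the TSS of Nfe2l2, which encodes the oxidative-stress regulator Nrf2. It held 168.1, 172.7 and 138.0 normalized counts in DKO and 0, 2.5 and 4.3 in WT, or 78, 50 and 180 reads against 0, 5 and 6. It stood alone, since no other higher and no lower site lay within 100 kb, and its log2 fold was 5.63. Near Sprr2a3, one of a cluster of small proline-rich genes of the epidermis, the site on chr3:92274401-92283450 held 347.0, 373.0 and 298.2 in DKO against 42.2, 85.7 and 80.9. That site was one of 31 higher sites within 100 kb, with no lower one among them.

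These were the 2 of the 8 higher sites at which the groups did not overlap with the mean per window. At the other 3, near or in Myo3a, Zfp982 and 2010315B03Rik, the groups overlapped with that scaling. The site on chr2:22587851-22589650, placed in Myo3a, held 1033, 341.9 and 339.6 in DKO against 43.6, 125.6 and 51.6. Whether the reads counted at this or any other named site belong to that place alone was not tested. The named sites were chosen among those without overlap of the groups. That choice fixed the exact two-sided permutation p of each at 0.1, the smallest that 6 libraries allow, so it lends them no support.

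**Figure D3:**
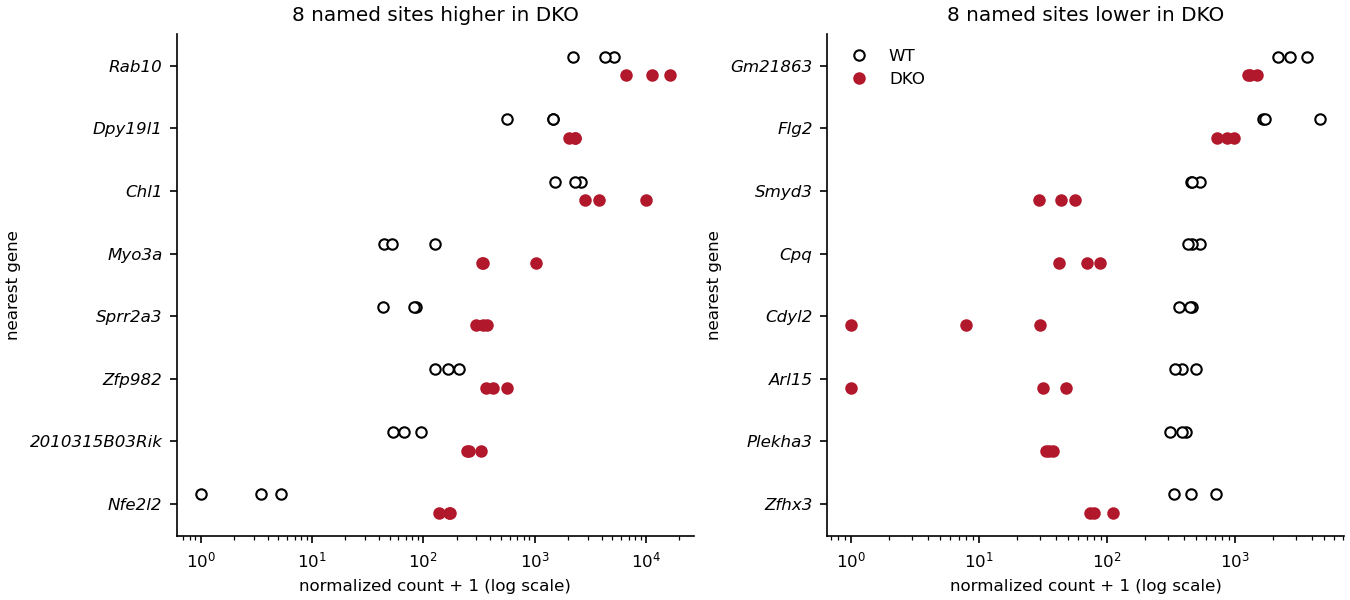
Normalized count plus 1 (log scale) of each DKO (filled) and WT (open) library at the 8 higher and the 8 lower sites with the widest gap between groups, named by the nearest TSS. At lower sites from Smyd3 down, the DKO libraries lie at 0 to 111 and the WT libraries at 311 to 715, and at the site near Nfe2l2 the WT libraries lie at 0 to 4.3.

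Values from other mice were set beside these sites. The comparisons of Daxx-KO (Daxx F/F) with WT HSPCs at 3 and 24 w.p.i. used 2 libraries per group, none of them in the comparison described here, and each had its own scaling. The values are those of the listed site with the largest overlap, whose ends differ from the site named. At 3 w.p.i. the site in Smyd3 held 32.6 and 20.0 (Daxx-KO) against 880.3 and 837.2 (WT), and 272.9 and 302.2 against 1200 and 1437 at 24 w.p.i. At the site in Cdyl2 the values were 30.2 and 40.0 against 649.3 and 667.3 at 3 w.p.i., and 100.1 and 218.9 against 1104 and 913.6 at 24 w.p.i. In Arl15 they were 30.2 and 35.0 against 719.3 and 921.3, and then 15.3 and 129.2 against 1028 and 901.4. Both Daxx-KO libraries were thus below both WT libraries at these sites in mice that had kept Pu.1.

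Of the 8 lower sites, all overlapped a listed site at 3 w.p.i. with both Daxx-KO libraries below both WT libraries. At 24 w.p.i. this held for 6 of them, the site on chromosome 12 was higher in Daxx-KO (4328 and 4374 against 3793 and 3957), and no site was listed at Flg2. Of the 8 higher sites, 4 overlapped a listed site at 3 w.p.i., with both Daxx-KO libraries above both WT libraries at each. At 24 w.p.i. 6 did, of which 4 were higher in Daxx-KO and 2 were lower, that on chromosome 12 (27397 and 28707 against 47745 and 32983) and that near Dpy19l1 (519.6 and 1104 against 1620 and 1496). That in Myo3a was higher in Daxx-KO at 3 w.p.i. (1386 and 1233 against 362.2 and 277.1) and at 24 w.p.i. (572.5 and 2211 against 253.4 and 166.8). The site near Nfe2l2 overlapped no listed site at 3 or 24 w.p.i.

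**Figure D4:**
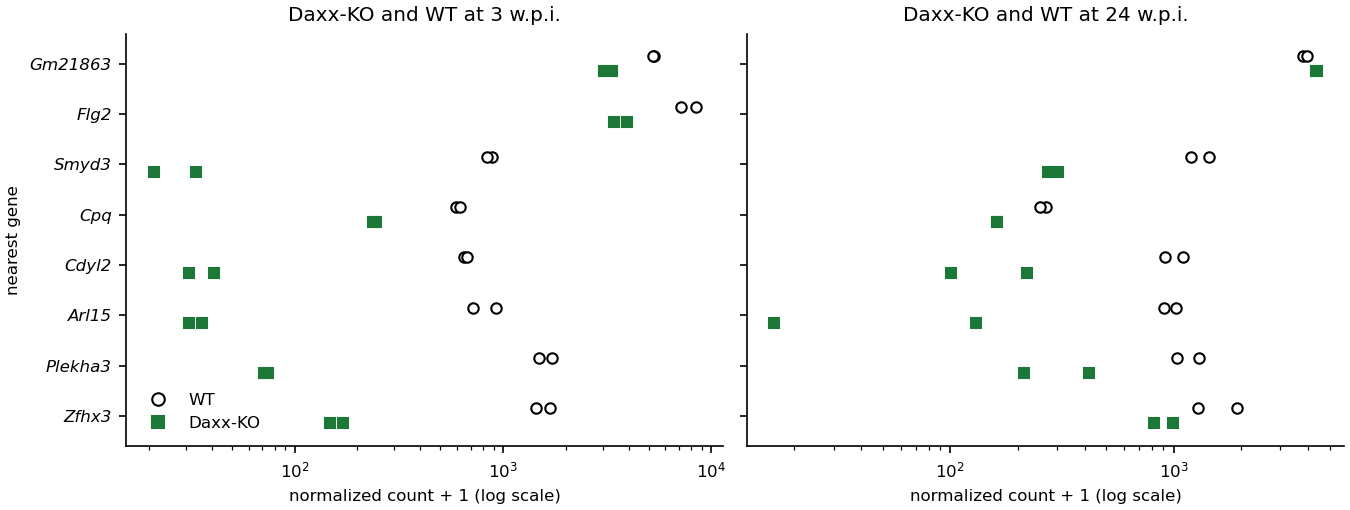
Normalized count plus 1 (log scale) of each Daxx-KO (squares) and WT (open circles) library of other mice at the 8 lower sites, at 3 w.p.i. (left) and 24 w.p.i. (right), each on its own scaling. Both Daxx-KO libraries lie below both WT libraries at 8 of 8 sites on the left and at 6 on the right, where no value is listed for Flg2.

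Over all sites, 2953 of the 8234 lower sites (35.9%) overlapped a site listed at 3 w.p.i., which were 4.79% of the sites of that comparison. Of these, 83.2% (81.8 to 84.5) were lower in Daxx-KO, where 21.1% of all sites of that comparison were lower. At 24 w.p.i. 3596 lower sites (43.7%) overlapped 2.54% of the listed sites, and 77.7% (76.3 to 79.1) were in the same direction, where 51.9% of all were lower. For the higher sites, 2892 (13.1%) overlapped at 3 w.p.i., and 89.7% (88.5 to 90.7) were higher there, where 78.9% of all were higher. At 24 w.p.i. 5122 higher sites (23.3%) overlapped 3.58% of the listed sites, and 44.0% (42.6 to 45.3) were in the same direction, where 48.1% of all were higher. Lower sites thus shared their direction with Daxx-KO mice in a larger part than all sites of that comparison at both times, and higher sites at 3 w.p.i. but not at 24 w.p.i. Overlapping sites are neighbours on the chromosome, so the intervals cover counting error only.

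At 8 w.p.i., Daxx-KO libraries were compared with the WT libraries used here and, in another comparison, with the DKO libraries used here, so their values are only set side by side. At the site in Smyd3 Daxx-KO held 36.2, 12.9 and 56.1 where WT held 940.2, 774.3 and 801.8, and no DKO against Daxx-KO site was listed there. The same pattern, low in Daxx-KO against WT with no site listed between DKO and Daxx-KO, was found in Cdyl2, Arl15 and Ttn. At the other 4 lower sites DKO was listed below Daxx-KO, with 24.4, 13.1 and 44.5 against 98.8, 139.7 and 113.0 in Cpq and 12.2, 16.3 and 16.0 against 68.0, 46.9 and 33.8 in Zfhx3. In Flg2 the values were 905.9, 817.1 and 691.0 against 2508, 3563 and 1059, with no site listed between Daxx-KO and WT. On chromosome 12 they were 722.7, 666.8 and 606.5 against 1513, 1504 and 820.4. The 8 sites thus fell into 4 without and 4 with a listed difference between DKO and Daxx-KO. In Cpq, in Zfhx3 and on chromosome 12, every Daxx-KO library was also listed below every WT library, but over another stretch of the site. The means were 71.6 against 219, 39.6 against 254 and 361 against 474. All these values cover parts of the named sites, and those of DKO against Daxx-KO cover 1600 bp in Cpq and 800 bp in Zfhx3. In Zfhx3 Daxx-KO was set against WT on chr8:108943451-108947700 and DKO against Daxx-KO on chr8:108950501-108951300. On chromosome 12 the stretches were likewise apart, and in Cpq they shared little. The values thus give no order of WT, Daxx-KO and DKO at one place. At the site near Nfe2l2, DKO held 158.8, 163.4 and 131.2 where Daxx-KO held 3.0, 6.0 and 5.4. In the comparison of Daxx-KO with WT at that site, the values were 7.2, 17.5 and 18.7 against 0.8, 5.9 and 5.0. Every DKO library thus lay far above every Daxx-KO library near Nfe2l2.

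H3K27me3, the repressive mark of Polycomb, was measured in the same mice. Of the higher H3K9me3 sites 279 (1.27%) overlapped a site at which H3K27me3 was compared between DKO and WT, and of the lower sites 49 (0.595%). Of the 279, 25.1% (20.4 to 30.5) were higher for H3K27me3, where 55.1% of all H3K27me3 sites were higher. Of the 49, 5 (10.2%, 4.44 to 21.8) were lower for H3K27me3, where 44.9% of all H3K27me3 sites were lower.

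Sites were counted for genes with a site in the gene or within 5 kb. Of 20780 protein-coding autosomal genes, 2076 (9.99%) had a higher site, 1256 (6.04%) a lower site and 464 both. With the mean per window the counts were 1164 (5.60%) and 1194 (5.75%), so the shares of higher sites below should be read against both.

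The zinc-finger protein genes stood out by lower sites. Of 415 such genes, many of which encode KRAB repressors that recruit Setdb1 to retroelements, 108 (26.0%) had a lower and 84 (20.2%) a higher site, and with the mean per window 100 and 27. Beside Zfp951 on chromosome 5, a site held 198.3, 217.6 and 208.6 in DKO against 513.1, 369.4 and 451.2 in WT. Over an exon of Zfp992 on chromosome 4 a site held 258.7, 255.6 and 180.9 against 465.0, 459.6 and 398.9. In the same array, a site over an exon of Zfp600 held 176.8, 100.2 and 87.4 against 38.6, 43.4 and 48.0 and overlapped between groups with the mean per window. Where such genes are near-identical copies, reads shared between copies may be placed on either, which was not tested.

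Zfp809, whose protein silences retroviral DNA through Trim28, was the single lower gene among 27 of H3K9 methylation and repeat silencing. Its site held 0, 6.9 and 10.7 in DKO against 32.8, 28.6 and 31.5 in WT, with 3 lower sites in all. In the same list Smarcad1, a chromatin remodeller, had a higher site in an intron (12.9, 20.7 and 14.6 against 0, 0 and 0.7), as had Resf1 (19.4, 62.2 and 26.1 against 7.2, 11.8 and 11.5), whose groups overlapped with the mean per window. Of the 27 genes, 7.41% had a higher and 3.70% a lower site, beside 9.99% and 6.04% of all genes. None of the 11 genes of H3.3 and its chaperones had a site of either direction. Both lists are short, so these counts are no result about their genes.

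Imprinted genes had sites of both directions. Of 31 autosomal imprinted genes, 5 (16.1%) had a lower and 5 a higher site, and with the mean per window 5 and 3. The lower site at Mest, on chr6:30736851-30738300, covered the promoter that is methylated on the maternal allele and held 6.5, 13.8 and 13.0 in DKO against 88.5, 25.1 and 70.9 in WT. At Gnas a site within 1 kb of the start of the antisense transcript Nespas held 17.2, 13.8 and 19.2 against 85.8, 60.6 and 68.8. At Nnat, which encodes neuronatin, a site held 0, 0 and 1.5 against 17.5, 9.8 and 16.5. The other 2, named after their values were seen, were Zrsr1 (0, 0 and 2.3 against 8.1, 10.3 and 11.5) and Trappc9, at the start of Peg13 in its intron (17.2, 20.7 and 6.9 against 64.7, 26.6 and 27.9). With the mean per window the groups overlapped at this site of Trappc9, which had 2 lower sites, and not at the other 4 sites given.

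The promoter of Mest is printed because it lay within a lower site, from RefSeq on GRCm38.p6, plus strand, with CpG in capitals. It held 17 CpGs, where the median of the 32851 RefSeq promoters was 7.
Mest, chr6:30737800-30738099: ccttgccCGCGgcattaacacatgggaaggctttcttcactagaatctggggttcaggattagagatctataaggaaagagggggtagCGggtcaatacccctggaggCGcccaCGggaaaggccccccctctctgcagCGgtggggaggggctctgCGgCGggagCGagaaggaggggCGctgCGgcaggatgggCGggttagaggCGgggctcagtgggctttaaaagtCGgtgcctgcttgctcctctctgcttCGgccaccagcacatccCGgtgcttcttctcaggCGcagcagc
The imprinted genes with higher sites were Zim1, Usp29, Kcnq1, Snrpn and Impact, with log2 folds of 2.02, 1.51, 1.39, 2.52 and 1.75. These are the sites with the widest gap of each gene, of 3 in Zim1, 9 in Usp29 and 11 in Kcnq1. At that of Snrpn (12.9, 6.9 and 10.7 against 0, 0 and 2.9) the groups did not overlap with the mean per window either, and at the other 4 they did.

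Many genes in clustered families of sensory receptors had a higher site. A single site can count for several neighbouring genes, as it did for Vmn1r42 and Vmn1r43. A higher site was found at 230 of 1127 olfactory receptor genes (20.4%), at 116 of 328 vomeronasal receptor genes (35.4%) and at 12 of 38 taste receptor genes (31.6%). With the mean per window these counts were 89, 58 and 3, and for taste receptors the lower count of 4 was then the larger. A lower site was found at 60 (5.32%), 29 (8.84%) and 4 (10.5%). Beside Olfr774 the higher site held 94.8, 55.3 and 29.9 in DKO against 8.1, 6.4 and 10.0 in WT. At the pheromone receptor gene Vmn1r42 it held 81.9, 55.3 and 91.2 against 20.7, 17.2 and 32.9. With the mean per window the groups overlapped at both of these sites. A lower site at Olfr417 held 12.9, 27.6 and 21.5 against 79.5, 82.8 and 60.2.

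The clustered protocadherins, cell-surface proteins that give neurons their identity, had sites of both directions. Of 56 genes, 34 (60.7%) had a higher and 25 (44.6%) a lower site, and with the mean per window 13 and 25. Their transcription units overlap, so 1 site counts for several genes. A lower site at the start of Pcdhgb2 held 0, 0 and 1.5 in DKO against 15.7, 15.8 and 14.3 in WT. A higher site at the start of Pcdhgb8 held 51.7, 55.3 and 30.7 against 13.9, 13.8 and 17.2, and overlapped between groups with the mean per window.

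Among smaller families, 16 of 64 defensin genes (25.0%) had a higher and none a lower site, and 6 had a higher one with the mean per window. Beside Defa33, a Paneth-cell defensin, the site held 99.2, 69.1 and 52.9 against 20.2, 12.3 and 12.2, with overlap of the groups under that scaling. Cytochrome P450 genes had higher sites at 21 and lower sites at 12 of 100, which became 9 and 10. Serpin genes had 7 and 3 of 60 (11.7% and 5.00%), beside 9.99% and 6.04% of all genes. Of 26 Klra and Klr receptor genes of natural killer cells, 4 (15.4%) had a lower and 1 (3.85%) a higher site. At Klrb1c the lower site held 58.2, 103.6 and 73.6 against 225.6, 177.3 and 205.5. Keratin and Slfn genes had no site, and MHC genes had 1 higher (2.94%) and 2 lower (5.88%) of 34.

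Among Hox genes, the body-plan regulators, 3 of 39 (7.69%) had a lower and none a higher site. Over all genes 6.04% had a lower and 9.99% a higher site. At Hoxa3 the site held no read in any DKO library and 6.7, 13.8 and 22.9 in WT, and a site at the start of Hoxa5, also within 5 kb of Hoxa6, held 0, 0 and 3.8 against 14.4, 10.3 and 14.3. Of 67 histone cluster genes 3 (4.48%) had a lower and none a higher site, and 1 site counted for both Hist1h2ao and Hist1h2bq. At Hist1h4m the lower site held 47.4, 51.8 and 29.9 against 176.1, 92.6 and 168.3. Both lower shares lie near that of all genes, so these counts are no result about the families.

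**Figure D5:**
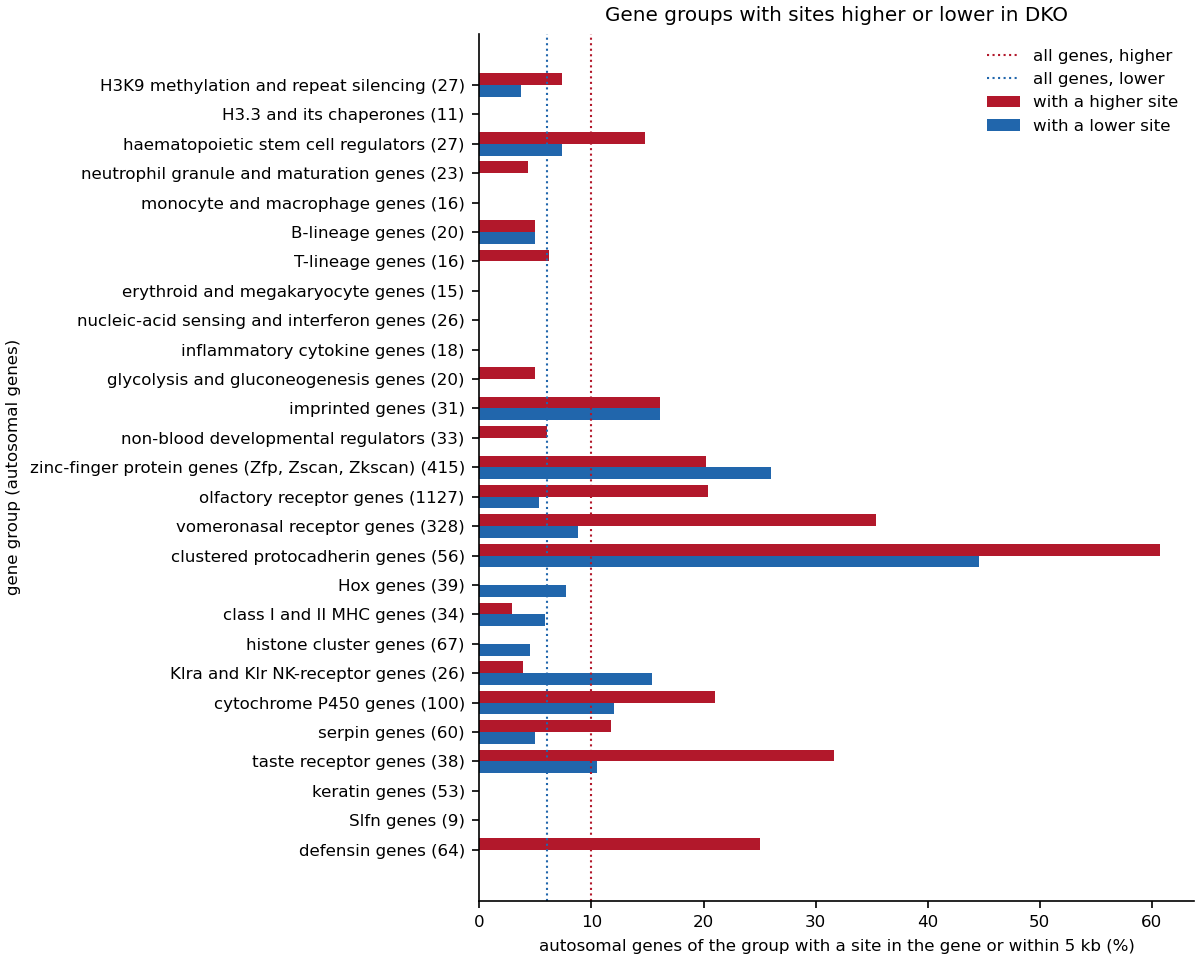
Percentage of the autosomal genes of each list or family (number of genes in brackets) with a site higher (red) or lower (blue) in DKO in the gene or within 5 kb. Dotted lines mark the share over all protein-coding autosomal genes, 9.99% and 6.04%, and receptor, protocadherin and zinc-finger families reach past them.

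Counts for genes of blood-cell identity and inflammation stand beside 9.99% of all genes with a higher and 6.04% with a lower site. The lists are short, so few members with a site are no result about these genes. Of 26 genes of nucleic-acid sensing and interferon, 18 of inflammatory cytokines, 16 of monocytes and macrophages, and 15 of erythroid cells and megakaryocytes, none had a site of either direction. One of 23 neutrophil genes had a higher site, Olfm4, with 12.9, 6.9 and 12.3 against 0, 2.0 and 0. Of 20 glycolysis and gluconeogenesis genes, Gpi1 alone had one, with 21.6, 13.8 and 11.5 against 7.2, 3.0 and 4.3, and no longer with the mean per window.

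Of 27 regulators of haematopoietic stem cells, 4 (14.8%) had a higher and 2 (7.41%) a lower site, beside 9.99% and 6.04% of all genes. Over an exon of Cd34, a surface marker of progenitors, 30.2, 20.7 and 10.7 normalized counts in DKO stood against no read in any WT library. In introns of Tek, the angiopoietin receptor Tie2, a higher site held 30.2, 20.7 and 23.0 against 2.7, 1.0 and 0, and a lower site 4.3, 6.9 and 1.5 against 13.9, 21.7 and 18.6. Angpt1, the ligand of Tek, likewise had a lower site of 4.3, 3.5 and 0.8 against 22.5, 11.8 and 12.9, and in the same gene a higher site of 6.5, 6.9 and 12.3 against 2.7, 2.0 and 0. These are weak sites, with at most 30.2 normalized counts in any library.

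For lymphoid genes, Il7r, the interleukin-7 receptor, had a lower site within 5 kb with 21.6, 6.9 and 23.0 in DKO against 92.1, 70.0 and 76.6 in WT. Ebf1, a B-lineage transcription factor, had a higher site in an intron with 12.9, 24.2 and 29.9 against 9.0, 6.4 and 9.3, which overlapped between groups with the mean per window. Tox, a regulator of T-cell development, had one with 12.9, 41.4 and 13.0 against 0, 3.5 and 0. These were 2 of 20 B-lineage genes and 1 of 16 T-lineage genes. Of 33 developmental regulators outside blood, Pax3 and Wt1 had higher sites. Among the markers of HSPCs, neutrophils, B cells, T cells, erythroid cells and macrophages, only Cd34 and Ebf1 of 30 genes had a site, and a heterochromatin mark cannot check the cell type of the sample.

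No site was listed within 50 kb of Daxx, Spi1, Fbp1 or Fbp2, the last of which encode gluconeogenic fructose bisphosphatases. The absence of a listed site is no measurement of the mark there. The nearest site to Daxx, 99.1 kb away on chromosome 17, held no read in any DKO library and 9.9, 9.4 and 6.5 in WT. The nearest to Spi1 was 715 kb away on chromosome 2 and held 0, 0 and 7.7 against 21.6, 17.2 and 21.5. Within 5 Mb of Daxx 55 sites were higher and 39 lower, and within 5 Mb of Spi1 161 and 62. The share of higher sites was 58.5% around Daxx, 72.2% around Spi1, 52.6% around Fbp1 and 52.8% around Fbp2, beside 72.8% over all autosomes.

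Sites of each direction gathered in part of the genome. Of 2473 windows of 1 Mb, the 247 with the most sites held 40.4% of the higher and 40.3% of the lower sites. The window with the most higher sites lay at 20 to 21 Mb of chromosome 8, with 107 higher and 4 lower sites around Defb33 and predicted genes. It was followed by 128 to 129 Mb of chromosome 5 (99 and 4), which holds Piwil1, a Piwi protein of the germline, with Rimbp2 and Tmem132d. Next came 118 to 119 Mb of chromosome 8 (88 and 9), which holds only Cdh13, and 187 to 188 Mb of chromosome 1 (75 and 0) with Esrrg, Gpatch2 and Spata17. In that last window the median higher site held 17.2, 13.8 and 15.3 in DKO and 1.80, 1.97 and 2.15 in WT, and 52 of the 75 remained higher with the mean per window.

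The window with the most lower sites, 147 to 148 Mb of chromosome 4, was also among the 5 with the most higher sites, with 58 lower and 73 higher sites in an array of zinc-finger genes that includes Rex2 and Zfp982. With the mean per window, 41 sites there were lower and 4 higher. The neighbouring window at 146 to 147 Mb held 50 lower and 60 higher sites, which became 33 and 2, so the balance in this array turned with the scaling. At 171 to 172 Mb of chromosome 2, a window with no protein-coding gene, 56 sites were lower and 42 higher, which became 50 and 4. At 153 to 154 Mb of chromosome 4, near Ajap1, 53 were lower and 16 higher, and the median lower site held 0, 0 and 5.37 in DKO against 26.5, 19.2 and 21.5 in WT. The last of the 5, at 104 to 105 Mb of chromosome 5 with Zfp951, Abcg3 and the bone-matrix genes Dspp, Dmp1, Ibsp, Mepe and Spp1, held 50 lower and 30 higher sites.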

How the data were processed

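CUT&Tag libraries of HSPCs were processed by the authors. The submitters' processing notes name CASAVA 1.8.4, cutadapt 1.13, STAR 2.5.3 and bedtools, with mm10. Per the file headers, diffReps 1.55.6 compared the groups with a negative binomial test in windows of 600 bp moved by 50 bp (fragment size 100 bp, p cutoff 0.0001) and merged windows into sites. The deposited signal of a site is a normalized count per library, its reads divided by a constant, and the group averages are means of these. Other deposited columns hold the authors' fold changes, p-values and directions, which were not used.

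Libraries were matched to samples by mouse number. A site was higher or lower where all libraries of a group lay above or below all of the other, and no test was made across sites, which are a list that passed a test. Reads per site were recovered as whole multiples of the value of 1 read, within 0.15 reads. Where 1 group held no read, no fold was given. Sites were annotated with GENCODE M21 and GRCm38.p6 sequence in Python 3.11.15 (numpy 2.4.6, pandas 2.3.3, scipy 1.17.1, pysam 0.24.0), and the functions were tested on simulated data. Sites of 2 comparisons overlapped where they shared at least 1 bp, and the direction in the other one was that of its group averages. Named were the 8 higher and 8 lower sites with the widest gap between groups, at most 1 per Mb and nearest gene, at most 3 genes per list or family and direction by the same gap, Daxx, Spi1, Fbp1 and Fbp2, and the 5 windows of 1 Mb with most sites per direction. Members, lists and families were chosen with earlier results of these data known. Total library sizes are not in the tables, so the mean per window stands for depth. The reads at listed autosomal sites order the libraries otherwise, with 1035952 in DKO replicate 3 and 1422094 in WT replicate 1. Whether the mean per window measures depth alone was not tested. Alternatives left out libraries, changed scaling, filters, promoter width, gene assignment and overlap, and paired libraries by number. Some items are not reported here.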

Additional observations from a re-analysis of the deposited data

How the results depend on the processing

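The counts of lower sites stayed within 1.5 times of 8234 except where the average of the higher group had to be at least 20 (5063 lower and 8254 higher). The higher sites numbered 37444 by the sign of group averages, 2427 with at least 10 reads per library, 8592 scaled by the mean per window and 12946 scaled by the reads at listed sites, the last chosen after seeing the data. The share of higher sites was 72.8%. It was 24.0% with at least 10 reads, which turns the majority, 53.2% and 60.0% under these scalings, 81.2% by the sign of averages, 73.3% with a fold of at least 2, 62.0% with averages of at least 20 and 75.0% with sites merged within 1 kb. Leaving out 1 library gave 22775 to 26651 higher sites, 8264 to 9149 lower sites and shares of 73.2% to 76.3%. With a replicate block, each DKO library against the WT library of its number, 25372 sites were higher and 8479 lower (75.0%). Every site called with all libraries is also called with a library left out or with this block, so neither count could fall. The numbers mark different mice and correlations of the deviations of same-numbered libraries were -0.01, 0.04 and 0.01, so they share only a number.

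Promoter shares were 10.5% (higher) and 12.1% (lower) within 3 kb, 2.18% and 3.28% within 250 bp, and 5.34% of higher sites with averages of at least 20. Genes by nearest TSS were 3815 and 2992, and with averages of at least 20, 1025 and 813. Same-direction shares at 3 weeks were 91.0% (higher) and 87.4% (lower) with an overlap of 50% of the shorter site, and 87.6% and 73.9% within 1 kb. Lower sites without DKO replicate 2 gave 80.6%. Of the 16 named sites, 10 kept their call with the mean per window. The few reads of DKO replicates 1 and 2 limit weak sites most.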
